A study of Rattus norvegicus with 12 samples.

Results

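The genes described here encode 5 interferon-γ-inducible GTPases, Gbp2, Gbp4, Gbp5, Igtp and Irgm, and were read by their symbols from a table of 34034 rat genes. All 5 had 1 line each in the table. Their RNA was measured in INS-1E cells, a clonal insulin-producing line derived from a rat insulinoma and used as a model of the pancreatic β-cell. Cells were left untreated, were given IL-1β at 10 pg/ml for 72 h with a new dose every 24 h (IL-1βlow), were given a cytotoxic mixture of IL-1β at 100 pg/ml and IFN-γ at 5 ng/ml for 16 h (CYT), or received the low dose first and the mixture afterwards (IL-1βlow + CYT). Each of these 4 groups had 3 biological replicates, which gives 12 libraries of one cell line, and no group received IFN-γ alone. The design asks whether β-cells that have met a low dose of IL-1β answer differently to the later mixture.

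Guanylate-binding proteins (GBPs) and immunity-related GTPases (IRGs) are cytosolic proteins that bind and cleave GTP and assemble on membranes. They are best known for coating vacuoles and bacteria inside infected cells, where GBPs open the way to inflammasome and caspase signalling and IRGs work with the autophagy machinery. IFN-γ binds its receptor, JAK kinases are activated, and the signal reaches GAS elements in DNA. The pathway also raises IRF1, which binds ISRE/IRF elements, and many GBP and IRG genes are read out through both. In β-cells exposed to inflammatory cytokines, this pathway runs beside NF-κB, the main route of IL-1β.

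The promoters of these genes are shown because the pathway acts through DNA elements of the kinds marked in them. The lines give the 120 bases before the annotated transcription start from RefSeq, build GRCr8, 5′ to 3′ on the strand of the gene. Capitals mark matches, on either strand, to 3 kinds of element. The ISRE/IRF letters were GAAA, any 2 bases and GAAA. The GAS letters were TTC, any 3 or any 4 bases and GAA. The κB letters were GGG, any 3 bases and TTCC, which include the stricter form GGG, any 2 bases and TTTCC.
Gbp2, chr2:234005607-234005726, plus strand: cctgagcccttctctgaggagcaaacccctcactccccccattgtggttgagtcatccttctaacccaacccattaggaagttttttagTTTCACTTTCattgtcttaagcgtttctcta
Gbp4, chr2:233978366-233978485, plus strand: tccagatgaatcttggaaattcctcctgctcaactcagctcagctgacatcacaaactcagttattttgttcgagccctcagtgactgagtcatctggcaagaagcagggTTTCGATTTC
Gbp5, chr2:233910879-233910998, plus strand: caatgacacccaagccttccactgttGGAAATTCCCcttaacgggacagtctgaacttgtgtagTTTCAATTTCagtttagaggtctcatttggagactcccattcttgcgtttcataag
Igtp, chr10:42874927-42875046, plus strand: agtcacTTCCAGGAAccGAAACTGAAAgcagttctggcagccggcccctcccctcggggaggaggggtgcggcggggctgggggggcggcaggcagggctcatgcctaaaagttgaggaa
Irgm, chr10:33742579-33742698, minus strand: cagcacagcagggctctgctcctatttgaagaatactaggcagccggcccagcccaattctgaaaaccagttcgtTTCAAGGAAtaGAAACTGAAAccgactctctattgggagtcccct

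In the 300 bases from 250 before to 50 after the start, the ISRE/IRF letters were found in 5 of 5 genes, against 1034 of 27457 rat promoters in the table (3.77%). Among related GTPase genes, Gbp7 and Irgm2 held these letters, whereas Gbp1, Gbp6, Ifi47, Gvin1 and Mx1 did not. The 3-base GAS form was found in Igtp and Irgm and in 8.68% of all promoters. The 4-base GAS form was found in 0 of the 5 and in 7.27% of all. The κB letters were found 2 times in Gbp5, once on each side of the start, where the wider form was in 5.36% of all promoters and the stricter form in 1.51%. In Igtp and Irgm the GAS and ISRE/IRF matches were 2 bases apart and in the same order. A match in these windows describes letters, not a bound factor.

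Gbp2, Gbp4, Gbp5 and the related Gbp7 and Gbp1 neighbour each other on rat chromosome 2, and Igtp lies beside Irgm2 on chromosome 10, in GRCr8. Gbp2, Gbp4, Gbp5 and Igtp overlap no other annotated gene there, whereas Irgm overlaps 1 uncharacterized locus, LOC108352081. GBP and IRG genes are close paralogs, and reads that match several of them may have been split or dropped in counting, so their separate values carry that uncertainty.

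**Figure D1:**
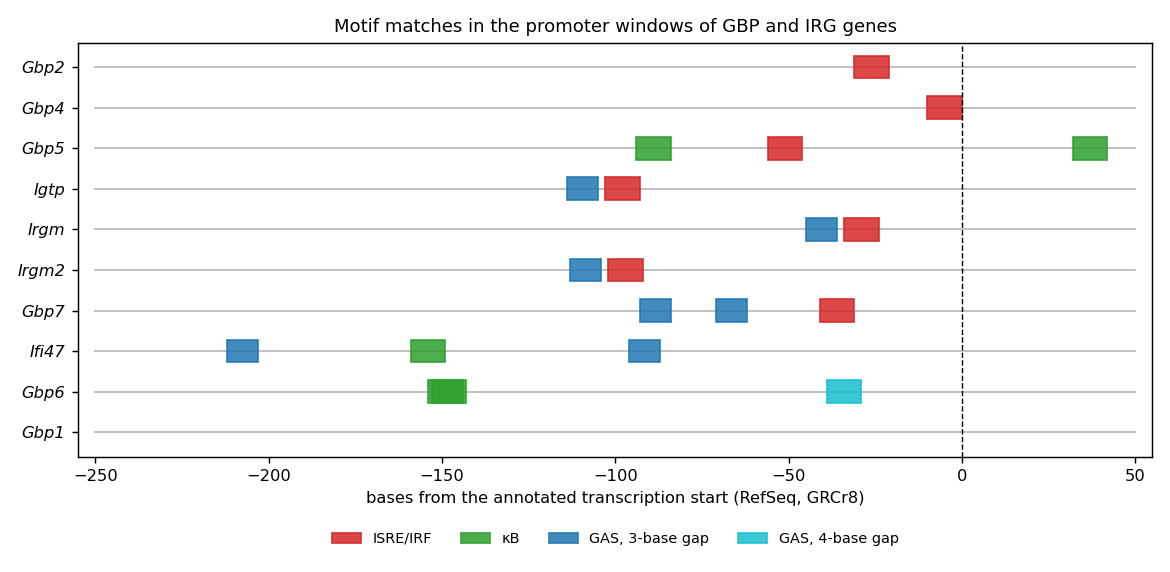
Motif matches in the promoter windows of the 5 genes and of related GBP and IRG genes, by distance in bases from the annotated start (dashed line). Coloured boxes are ISRE/IRF, GAS and κB matches drawn to scale. In Igtp, Irgm and Irgm2 a GAS match is followed after 2 bases by an ISRE/IRF match, in Gbp7 GAS and ISRE/IRF matches lie further apart, and Gbp1 has no match.

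The libraries held 15812640 to 20246806 counts. A gene was tested when its CPM, the count scaled by library size, exceeded 1 in at least 2 libraries, which kept 14324 genes. All 5 genes passed, Gbp4 only through 2 CYT libraries, so that its difference from the other groups was partly set by the filter. Calls were made with edgeR's quasi-likelihood test where the adjusted p was below 0.01 and the log2 fold change exceeded 1 in either direction, or 0.6 for IL-1βlow against untreated. β-cell markers summed to 10812–39962 CPM per library. They were at 33573–39962 in untreated cells, 29382–34323 in IL-1βlow, 10812–11055 in CYT and 16217–20513 in IL-1βlow + CYT. Most of the sum was Ins1, at a mean of 23994 CPM in untreated cells, 7197 in CYT and 11822 in IL-1βlow + CYT. Not all markers followed it. In the same order, mean Pdx1 was 266, 103 and 263 CPM, and mean Mafa was 890, 302 and 531 CPM. The leukocyte markers Ptprc, Itgam and Cd14 had 0 counts in every library. In bulk RNA, fewer cells of a kind and less RNA per cell cannot be told apart.

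Gbp2 encodes a guanylate-binding protein that is anchored in membranes by a lipid tail. In untreated cells the 3 libraries gave 0.917, 0.414 and 0.365 CPM, from 16, 7 and 6 counts. In IL-1βlow they gave 0.820, 0.245 and 0.494 CPM. In CYT they gave 21.8, 22.5 and 43.2 CPM. In IL-1βlow + CYT they gave 4.26, 3.88 and 4.75 CPM, so the 3 CYT libraries stood above all others, the preconditioned libraries lay between, and the untreated and IL-1βlow ranges overlapped. Gbp2 rose by 5.66 ± 0.38 on the log2 scale with CYT (SE, 3 libraries a group), a 50.6-fold change (adjusted p = 1.4e-08), and by 2.90 ± 0.41, a 7.45-fold change, with IL-1βlow + CYT (adjusted p = 0.00011). Between the groups given the mixture, Gbp2 was 6.80-fold lower in preconditioned cells, a log2 fold change of -2.77 ± 0.29 (adjusted p = 3.5e-06).

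Gbp5 encodes a GBP that in macrophages promotes assembly of the NLRP3 inflammasome. Untreated libraries gave 0.458, 0.237 and 0.426 CPM and IL-1βlow libraries 0.205, 0.245 and 0.247 CPM. CYT libraries gave 17.1, 21.5 and 41.8 CPM, and IL-1βlow + CYT libraries 4.56, 4.43 and 5.23 CPM. The order of the groups was that of Gbp2, with no overlap between CYT and any other group. Gbp5 rose by 6.14 ± 0.38 (log2) with CYT, or 70.5-fold (adjusted p = 6.6e-09), and by 3.64 ± 0.42, or 12.4-fold, with IL-1βlow + CYT (adjusted p = 1.4e-05). It was 5.66-fold lower in preconditioned than in naive cells given the mixture, at -2.50 ± 0.27 (adjusted p = 4.8e-06).

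Gbp4 encodes another member of the GBP family and had the fewest counts. There were 0, 0 and 1 counts in untreated cells, 0 in all 3 IL-1βlow libraries, 14, 29 and 57 in CYT, and 3, 2 and 1 in IL-1βlow + CYT. These correspond to 0.761, 1.69 and 2.91 CPM in CYT and 0.182, 0.0995 and 0.0594 CPM in IL-1βlow + CYT. The CYT libraries did not overlap any other group, and every other library was close to the limit of detection. Against untreated cells the summed counts in CYT gave a ratio of 92.2 (exact 95% interval 16.2 to 3676, counting error only). With IL-1βlow + CYT the ratio to untreated cells was 5.71 (0.693 to 263) and did not pass (adjusted p = 0.32). The fitted level in IL-1βlow + CYT was 15.1-fold lower than in CYT, at -3.91 ± 0.66 on the log2 scale. Because CYT libraries alone brought Gbp4 into the test, its differences from CYT are given as a description, with no p.

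Igtp encodes an IRG protein of the endoplasmic reticulum and lipid droplets that regulates other IRG proteins. Its libraries gave 10.4, 8.29 and 8.45 CPM in untreated cells and 10.2, 9.88 and 9.13 CPM in IL-1βlow. They gave 31.1, 34.6 and 42.7 CPM in CYT and 36.8, 29.1 and 29.9 CPM in IL-1βlow + CYT. The untreated and IL-1βlow ranges overlapped, and so did those of CYT and IL-1βlow + CYT, which both stood above them. Igtp rose 3.99-fold with CYT, at 2.00 ± 0.15 (adjusted p = 4.2e-08), and 3.52-fold with IL-1βlow + CYT, at 1.82 ± 0.15 (adjusted p = 4.1e-07). The difference between these groups was -0.18 ± 0.14 (95% interval -0.47 to 0.12, adjusted p = 0.29) and did not pass the test.

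Irgm encodes an IRG protein that regulates autophagy and the other IRG proteins. Untreated libraries gave 16.4, 16.1 and 15.7 CPM, and IL-1βlow libraries gave 18.9, 18.9 and 16.8 CPM. CYT libraries gave 24.0, 21.2 and 24.6 CPM, and IL-1βlow + CYT libraries gave 43.4, 36.0 and 43.1 CPM. The ranges of the 4 groups did not overlap, but IL-1βlow against untreated, at 0.18 ± 0.11, did not pass the test (adjusted p = 0.47). How many of all genes had ranges without overlap was not counted, here or for other genes. Preconditioned cells given the mixture stood highest in Irgm, whereas in Gbp2 and Gbp5 that group lay below CYT. Irgm rose 2.54-fold with IL-1βlow + CYT, at 1.34 ± 0.11 (adjusted p = 4.2e-07). With CYT the log2 fold change was 0.53 ± 0.11 (95% interval 0.30 to 0.77, adjusted p = 0.00077), under the fold minimum. Between IL-1βlow + CYT and CYT it was 0.81 ± 0.11 (0.58 to 1.04, adjusted p = 2.8e-05), a 1.75-fold higher level that also lay under the fold minimum.

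**Figure D2:**
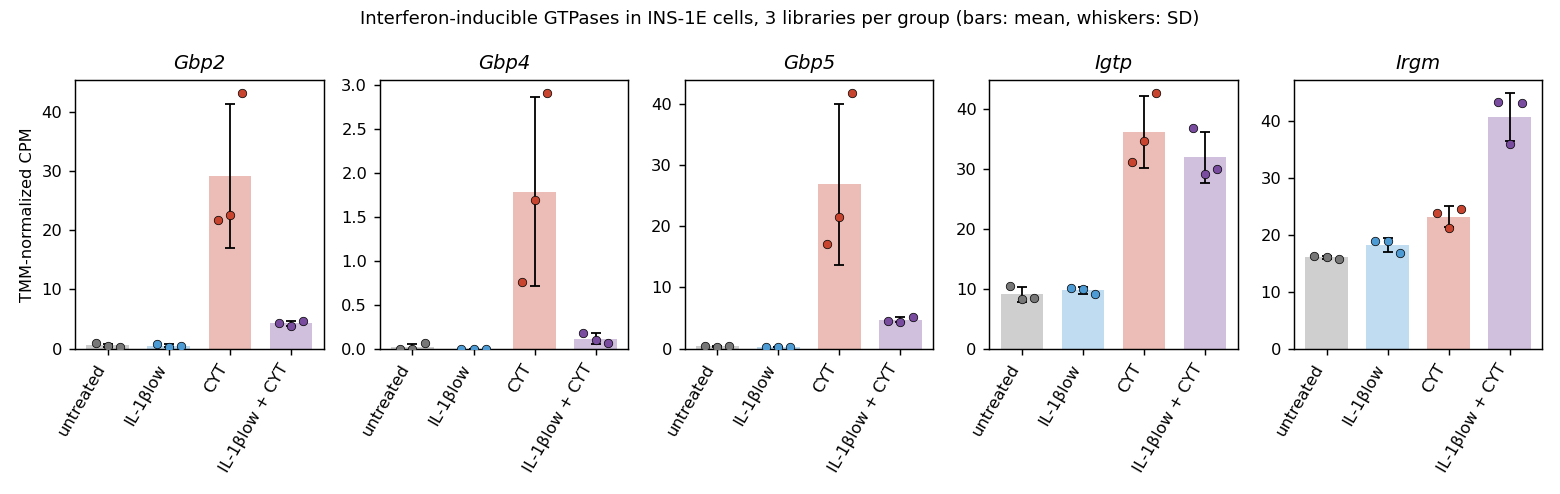
TMM-normalized CPM of each gene in each of the 12 libraries (points), with the mean (bar) and SD (whisker) of the 3 libraries per group. Each panel has its own linear axis from 0. Gbp2, Gbp4 and Gbp5 are highest in CYT, Igtp is similar in both groups given the mixture, and Irgm is highest in IL-1βlow + CYT at 36.0 to 43.4 CPM.

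The low dose alone was compared with untreated cells first, and 0 of the 5 genes were called, where 0.433% of all genes were. At an unadjusted p under 0.05 the count was also 0 in edgeR's quasi-likelihood test, and DESeq2 and exactTest called 0 of them too. The log2 fold changes were -0.09 ± 0.57 for Gbp2, -0.68 ± 0.69 for Gbp5, 0.10 ± 0.15 for Igtp and 0.18 ± 0.11 for Irgm, with adjusted p-values of 0.96, 0.66, 0.77 and 0.47. The intervals were narrow for the IRG genes, at -0.22 to 0.43 for Igtp and -0.06 to 0.42 for Irgm, and wide for the GBP genes, at -1.31 to 1.13 for Gbp2 and -2.16 to 0.80 for Gbp5. At these depths a change of the GBP genes of that size was not detectable, and both groups of Gbp4 were at or under 3 counts in sum.

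With CYT against untreated cells, 4 of the 5 genes were called higher and 0 lower, where 10.0% of all genes were called higher. One of the 4 was Gbp4, which the filter let in through CYT, and without it 3 of 4 were called. With IL-1βlow + CYT against untreated cells, 4 of the 5 were again called higher (3.85% of all genes), but Irgm took the place of Gbp4. With IL-1βlow + CYT against IL-1βlow, the same 4 as against untreated cells were called higher (2.92% of all genes), with log2 fold changes of 2.99 for Gbp2, 4.32 for Gbp5, 1.71 for Igtp and 1.16 for Irgm. With CYT against IL-1βlow, Gbp2, Gbp4, Gbp5 and Igtp were called higher (9.24% of all genes), at 5.75 for Gbp2, 6.82 for Gbp5 and 1.89 for Igtp, and Gbp4 was at least 31.5-fold higher. Between the groups given the mixture, 3 of 5 were called lower in preconditioned cells (5.92% of all genes) and 0 higher (6.54% of all genes). Without Gbp4, 2 of 4 were called lower, namely Gbp2 and Gbp5. These comparisons share libraries and are not independent of each other.

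Whether the low dose changed the effect of the mixture was tested as the interaction of both treatments, the effect of CYT after IL-1βlow less its effect in naive cells. 1 of 5 genes was called, in the lower direction (5.20% of all genes) and 0 in the higher (5.48%). It was Gbp2, with an interaction of -2.68 ± 0.66 on the log2 scale (adjusted p = 0.0058). Without one of 6 libraries (untreated replicates 2 and 3, IL-1βlow replicates 1 and 3, or IL-1βlow + CYT replicates 1 and 2) its adjusted p was 0.01 to 0.058, at or past the threshold. The untreated and IL-1βlow libraries held 4 to 16 counts of Gbp2 each. For Irgm the interaction had the opposite sign, 0.63 ± 0.15 (adjusted p = 0.0057), under the fold minimum. Without a fold minimum, 22.6% of all genes had an adjusted p under 0.01 for the interaction. Gbp5 gave -1.82 ± 0.80 (adjusted p = 0.089) and Igtp -0.28 ± 0.21 (adjusted p = 0.30).

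The difference between Gbp2 and Irgm also showed within each library, where scaling between libraries plays no part. Per 100 counts of Irgm there were 5.59, 2.57 and 2.32 counts of Gbp2 in untreated cells and 4.34, 1.30 and 2.94 in IL-1βlow. There were 90.9, 106 and 176 in CYT, and 9.80, 10.8 and 11.0 in IL-1βlow + CYT. The CYT libraries were the highest, and the preconditioned libraries given the mixture lay between them and the others without overlap. Expressed as a share of the log2 response to CYT, IL-1βlow + CYT kept 51.2% for Gbp2, 35.5% for Gbp4, 59.2% for Gbp5, 91.0% for Igtp and 252% for Irgm, whose response to CYT alone was small. The value for Gbp4 rests on 1 count in untreated cells. The median over the 1439 genes called higher in CYT was 40.1%. The place of the GBP genes beside that median depended on the scale, since on the linear scale the shares were 13.0% for Gbp2, 5.29% for Gbp4 and 16.5% for Gbp5, all under the median of 23.1%, against 84.6% for Igtp and 345% for Irgm.

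The CYT libraries differed among themselves. CYT replicate 3 held the highest value for Gbp2, Gbp4, Gbp5 and Igtp, and over 32 tested interferon-γ target and antiviral genes its median stood 0.27 above the CYT mean on the log2 scale, against -0.19 and 0.06 for CYT replicates 1 and 2. Without CYT replicate 3, the difference between IL-1βlow + CYT and CYT was -2.40 for Gbp2 (adjusted p = 7.3e-06), -2.06 for Gbp5 (adjusted p = 2.1e-06) and 0.83 for Irgm (adjusted p = 0.00012). Gbp4 no longer passed the filter without CYT replicate 2 or 3 and then gave no value.

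The other interferon-inducible GTPases of a wider list, 9 in the table and 7 tested, are described beside them. With CYT, 6 of 7 rose (10.0% of all genes), with a median log2 fold change of 7.24 (5.79 with Gbp1 at its bound) beside -0.04 over all genes. Between IL-1βlow + CYT and CYT, 4 were called lower (5.92% of all genes), 0 higher (6.54%) and 3 not called. The median was -2.34, the value of Gbp1 itself, beside 0.02 over all genes. The 4 were the GBP genes Gbp1 and Gbp6 and the dynamin-like antiviral genes Mx1 and Mx2, of which Gbp1 entered the test through CYT libraries.

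Gbp6 gave 0.344, 0.178 and 0.0608 CPM in untreated cells, 0.308, 0.245 and 0.494 in IL-1βlow, 23.0, 29.0 and 40.6 in CYT and 2.92, 5.02 and 5.35 in IL-1βlow + CYT. Its difference between IL-1βlow + CYT and CYT was -2.79 ± 0.26 (adjusted p = 1.1e-06), and its interaction was -3.59 ± 0.75 (adjusted p = 0.0022). Gbp1 had 0 counts in all untreated and IL-1βlow libraries. It was at least 55.3-fold higher in CYT than in untreated cells, taking a floor of 3 counts over the group, and its log2 difference between IL-1βlow + CYT and CYT was -2.34 ± 0.53. Gbp1 exceeded 1 CPM in the 3 CYT libraries and in 1 other, so that it too entered the test through CYT, and this difference is a description with no p. Gbp3 had 6, 6 and 11 counts in CYT and 0 in the other 9 libraries and was not tested. Gvin1, a very large GTPase, had 1, 3 and 4 counts in CYT and 0 elsewhere.

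Gbp7, which lies between Gbp5 and Gbp4, had a course like that of Igtp. It gave 11.5, 8.46 and 8.15 CPM in untreated cells, 19.99, 24.9 and 41.9 in CYT and 20.2, 18.8 and 31.9 in IL-1βlow + CYT, where the last 2 ranges overlapped. Gbp7 rose by 1.63 ± 0.26 with CYT (adjusted p = 8.7e-05) and by 1.33 ± 0.26 with IL-1βlow + CYT (adjusted p = 0.0017), and the difference between them was -0.30 ± 0.25 (95% interval -0.82 to 0.23, adjusted p = 0.33).

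The IRG genes Irgm2 and Ifi47 followed Irgm. Irgm2 gave 18.5, 13.4 and 16.1 CPM in untreated cells, 35.9, 28.7 and 38.7 in CYT and 72.9, 50.1 and 61.4 in IL-1βlow + CYT. Its ranges in these groups did not overlap. It rose by 1.11 ± 0.16 with CYT (adjusted p = 3.1e-05) and by 1.94 ± 0.16 with IL-1βlow + CYT (adjusted p = 4.2e-07). Ifi47 gave 25.6, 22.1 and 22.1 CPM in untreated cells, 23.9, 29.2 and 34.7 in CYT and 62.5, 50.8 and 46.8 in IL-1βlow + CYT. Its untreated and CYT ranges overlapped, and its log2 fold change with CYT was 0.33 ± 0.15 (adjusted p = 0.067), whereas it rose by 1.20 ± 0.15 with IL-1βlow + CYT (adjusted p = 3.1e-05). Between IL-1βlow + CYT and CYT the log2 fold changes were 0.83 ± 0.15 for Irgm2 (adjusted p = 0.00040) and 0.87 ± 0.15 for Ifi47 (adjusted p = 0.00023), both under the fold minimum. Irgm2 and Ifi47 each overlap 1 uncharacterized locus in GRCr8.

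Mx1 gave 55.9, 93.4 and 152 CPM in CYT and 6.57, 10.9 and 14.9 in IL-1βlow + CYT, a difference of -3.21 ± 0.35 (adjusted p = 4.4e-06). Mx2 gave 149, 261 and 435 CPM in CYT and 13.7, 21.3 and 29.1 in IL-1βlow + CYT, a difference of -3.72 ± 0.33 (adjusted p = 7.8e-07). Both were under 1.5 CPM in every untreated and IL-1βlow library, and their CYT ranges did not overlap those of preconditioned cells. The relatives that are not interferon targets, namely atlastins, dynamins and the gene Irgq, gave 0 calls of 7 tested in every comparison. Median log2 fold changes were -0.34 for CYT against untreated (10.0% of all genes called higher) and -0.01 for IL-1βlow + CYT against CYT (5.92% lower, 6.54% higher). Some moved without being called. From CYT to IL-1βlow + CYT, Irgq went from 66.5–74.7 to 103–135 CPM and Atl3 from 47.4–66.9 to 67.6–103, without overlap. Dnm2 went the other way, from 254–257 to 147–177 CPM.

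**Figure D3:**
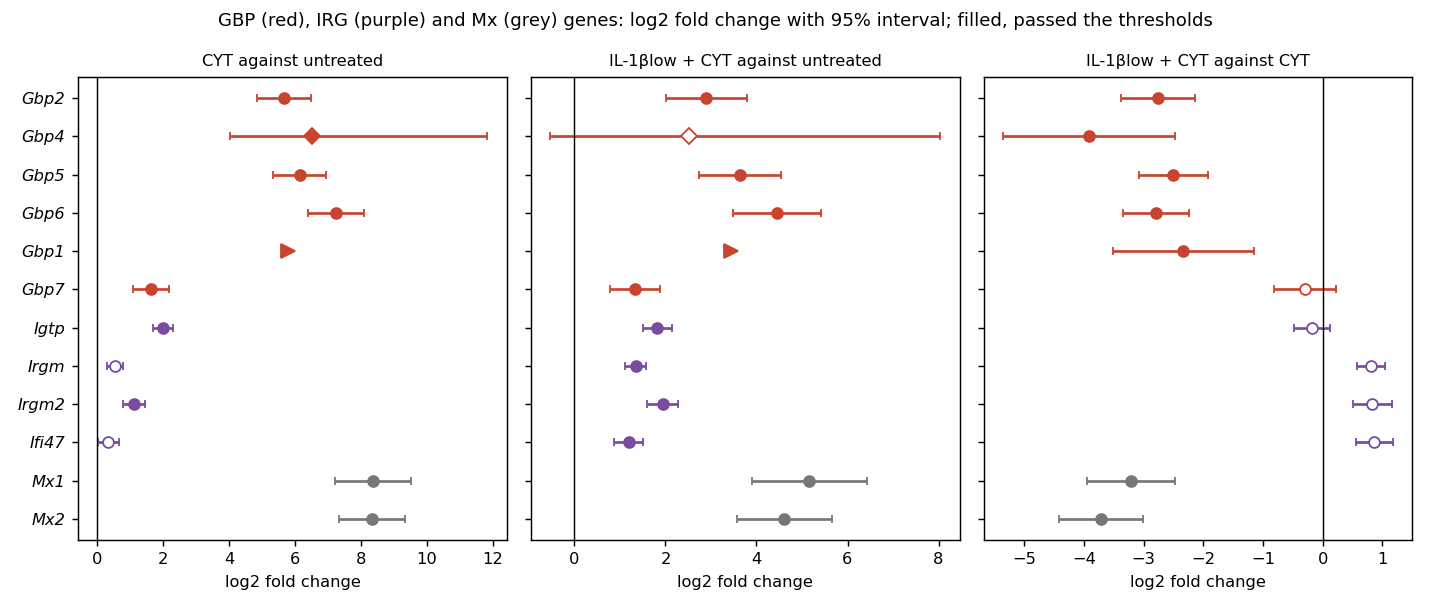
Log2 fold changes of GBP genes (red), IRG genes (purple) and Mx genes (grey) in 3 comparisons, with 95% intervals; filled symbols passed the test and the fold minimum. Diamonds are ratios of summed counts of Gbp4 with counting intervals, and arrowheads are lower bounds for Gbp1; both genes entered the test through CYT libraries. In the right panel Gbp2, Gbp4, Gbp5, Gbp6, Gbp1, Mx1 and Mx2 lie left of 0, Gbp7 and Igtp cross it, and Irgm, Irgm2 and Ifi47 lie at 0.81 to 0.87.

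Upstream of these genes, the receptor chains and kinases were present in every group. Ifngr1, the ligand-binding chain, gave 48.2, 47.6 and 49.7 CPM in untreated cells, 67.9, 86.4 and 83.4 in CYT and 62.7, 58.3 and 56.1 in IL-1βlow + CYT, a difference of -0.42 ± 0.09 between the last 2 (adjusted p = 0.0019). Ifngr2, the signalling chain, went the other way, with 60.2, 61.1 and 59.1 CPM in CYT and 83.1, 83.8 and 68.5 in IL-1βlow + CYT, a difference of 0.38 ± 0.09 (adjusted p = 0.0026). Jak1 differed by -0.52 ± 0.10 (adjusted p = 0.00063) and Jak2 by -0.48 ± 0.20 (adjusted p = 0.063). None of these 4 reached the fold minimum.

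Irf1, a transcription factor that binds ISRE/IRF elements, gave 34.9, 34.1 and 36.4 CPM in untreated cells, 195, 283 and 341 in CYT and 132, 129 and 121 in IL-1βlow + CYT. It rose by 2.96 ± 0.16 with CYT (adjusted p = 1.5e-09) and was lower in preconditioned cells by -1.10 ± 0.15 (adjusted p = 2.9e-05), with an interaction of -1.38 ± 0.21 (adjusted p = 0.00022). Ciita, the master regulator of MHC class II genes, was lower by -2.71 ± 0.22 (adjusted p = 3.3e-07). Irf8 had 4 to 22 counts per library and was not tested.

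Of the 14 tested genes of interferon-γ signalling, 8 rose with CYT (10.0% of all genes) and 0 fell, with a median of 1.15. In IL-1βlow + CYT 4 were lower than in CYT (5.92% of all genes), namely Irf1, Ciita, Batf2 and Batf3, with a median of -0.67. Batf2 exceeded 1 CPM in CYT libraries alone, so its difference from CYT was partly set by the filter. A list of 11 tested brakes on interferon signalling was not limited to interferon-γ. Of these, Usp18, a negative regulator of interferon receptor signalling, rose by 2.97 ± 0.23 with CYT (adjusted p = 6.4e-08). Usp18 was lower by -2.31 ± 0.22 in preconditioned cells (adjusted p = 1.3e-06). Socs2 fell with CYT by 1.34 on the log2 scale (adjusted p = 2.3e-08). Socs1, Socs3 and Ptpn2, which restrain JAK signalling, gave -0.71 ± 0.22 (adjusted p = 0.014), -0.76 ± 0.12 (adjusted p = 0.00015) and -0.35 ± 0.20 (adjusted p = 0.15) between IL-1βlow + CYT and CYT, all under the fold minimum. None of the 11 brakes was called higher in IL-1βlow + CYT than in CYT by edgeR's quasi-likelihood test (6.54% of all genes). Socs2 and Ptpn1 still lay higher there without overlap. Socs2 was at 63.7 to 71.9 CPM in CYT and 98.5 to 114 in IL-1βlow + CYT, and Ptpn1 at 78.1 to 95.1 and 113 to 142. In the interaction 1 of the 11 was called higher (5.48% of all genes) and 1 lower (5.20%).

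Other interferon-γ targets, such as antigen-processing genes and chemokines, rose in 14 of 17 tested with CYT (10.0% of all genes) and in 14 of 17 with IL-1βlow + CYT (3.85%). Between the groups given the mixture 4 were lower (5.92% of all genes), with a median of -0.67. Among these 4 was Cxcl9, which exceeded 1 CPM in CYT libraries alone, so its difference was partly set by the filter. Tap1, a peptide transporter subunit, fell from 143, 220 and 226 CPM in CYT to 84.0, 75.8 and 64.0 in IL-1βlow + CYT, a difference of -1.39 ± 0.15 (adjusted p = 4.2e-06). Antiviral genes usually assigned to type I interferon rose in 14 of 15 with CYT (10.0% of all genes). In IL-1βlow + CYT 11 of 15 were lower than in CYT (5.92% of all genes), with a median of -1.60. Zbp1 and Ifit1 entered the test through CYT libraries, so their differences from CYT were partly set by the filter. Rsad2 gave 44.4, 84.4 and 152 CPM in CYT and 1.16, 1.99 and 2.50 in IL-1βlow + CYT, a difference of -5.63 ± 0.40 (adjusted p = 1.3e-07). Of 8 interferon genes in the table none could be tested. Ifng had 0 counts in every library, and Ifnb1 had 1 count in 1 CYT library.

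**Figure D4:**
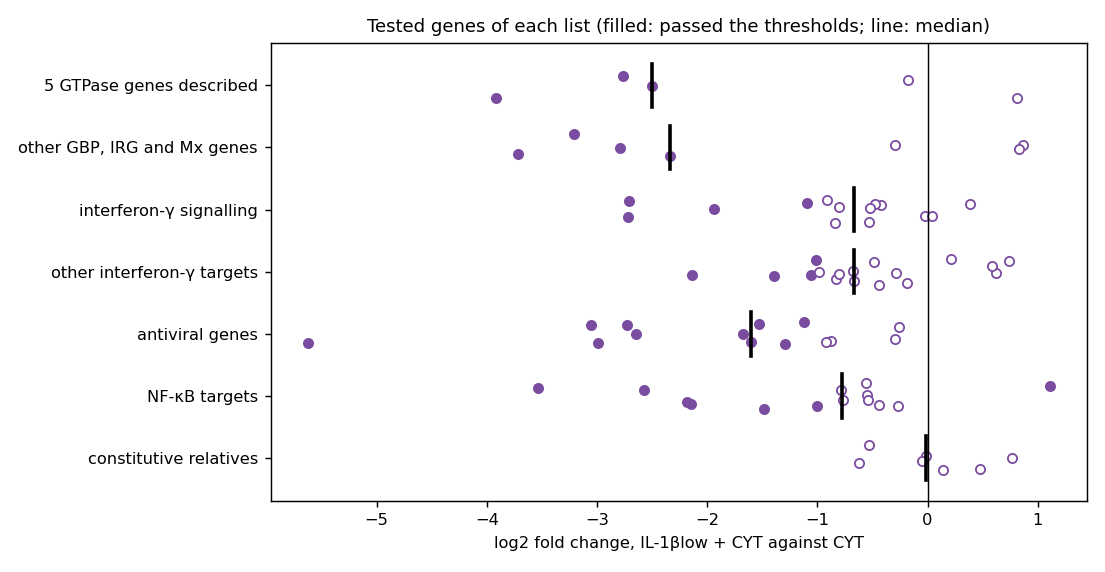
Log2 fold changes of IL-1βlow + CYT against CYT for the tested genes of each list (filled symbols passed the test and the fold minimum, black lines are medians). Zbp1, an antiviral gene with 0 counts in IL-1βlow + CYT, is left out of the points. The medians lie at -2.50 for the 5 genes, -2.34 for their relatives, -1.60 for antiviral genes and -0.01 for the constitutive relatives. The median of the 5 genes includes Gbp4, and that of their relatives is the value of Gbp1. Both genes entered the test through CYT libraries, so these medians were partly set by the filter. Each of the 2 lists was also split, with Igtp at -0.18 and Irgm at 0.81 among the 5 and Irgm2 at 0.83 among the relatives. No order of the lists is read from these medians.

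Partners of these GTPases were looked at next. Of 16 tested genes of autophagy conjugation and its adaptors, 2 rose with CYT and 0 fell, with a median of 0.13, a share near the 10.0% of all genes called higher. The same 2 were lower in IL-1βlow + CYT than in CYT (5.92% of all genes). They were Sqstm1, the adaptor p62, at 1.86 ± 0.09 and then -1.41 ± 0.09 (adjusted p = 7e-10 and 4.9e-08), and Gabarapl1, at 1.35 ± 0.08 and -1.04 ± 0.08 (adjusted p = 5.8e-09 and 3e-07). Of 8 tested inflammasome and caspase genes, 3 rose with CYT (10.0% of all genes) and 1 fell, for which the share over all genes is not given here. Casp4, the sensor caspase for bacterial lipopolysaccharide, gave 7.39, 7.05 and 8.18 CPM in CYT and 1.16, 1.09 and 2.79 in IL-1βlow + CYT, a difference of -2.17 ± 0.34 (adjusted p = 0.00011). Nlrp3 went the other way, with 1, 1 and 4 counts in CYT and 15, 29 and 8 in IL-1βlow + CYT, a difference of 3.06 ± 0.65 (adjusted p = 0.0013).

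NF-κB targets rose in 14 of 14 tested with CYT (10.0% of all genes), with a median log2 fold change of 5.31 (4.60 with the genes at 0 to 3 counts in untreated cells at their count ratio or bound). In IL-1βlow + CYT 6 were lower than in CYT (5.92% of all genes) and 1 was higher (6.54%). Ccl20, among the 6, entered the test through CYT libraries, so its difference from CYT was partly set by the filter. Nos2, the inducible nitric oxide synthase, gave 412, 605 and 688 CPM in CYT and 33.0, 55.7 and 57.8 in IL-1βlow + CYT, a difference of -3.54 ± 0.21 (adjusted p = 2.8e-08). The gene that was higher was Tnf, at 1.11 ± 0.19 (adjusted p = 0.00034).

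The GAS and ISRE/IRF pair of Igtp and Irgm was searched in all promoters as the 3-base GAS letters, any 2 bases and the ISRE/IRF letters, a pattern chosen after the promoters and values had been seen. It was found in 7 of 27457 promoters (0.0255%), and 4 of those genes were tested. The 4 sequences are shown to compare the bases between the fixed letters, with the fixed letters and those between them all in capitals.
Igtp: TTCCAGGAACCGAAACTGAAA
Irgm2: TTCTAGGAACCGAAACTGAAA
Irgm: TTCAAGGAATAGAAACTGAAA
Parp14: TTCCAGGAAATGAAAGTGAAA

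Between IL-1βlow + CYT and CYT the log2 fold changes of these 4 genes were -0.18 ± 0.14 for Igtp, 0.83 ± 0.15 for Irgm2, 0.81 ± 0.11 for Irgm and 0.74 ± 0.11 for Parp14, an ADP-ribosyltransferase. Parp14 gave 64.1, 67.7 and 83.3 CPM in CYT and 112, 114 and 133 in IL-1βlow + CYT without overlap (adjusted p = 7.4e-05), under the fold minimum. Ifi47, which had the same course, held 2 GAS matches, no ISRE/IRF match and so no such pair. The count of genes is small, they were not chosen independently of their values, and no inference on the element was made.

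Over the 12 libraries, the profiles of log2 CPM correlated at r = 0.98 between Gbp2 and Gbp5, 0.95 between Gbp5 and Igtp, 0.78 between Igtp and Irgm, 0.51 between Gbp2 and Irgm and 0.23 between Gbp4 and Irgm. These are descriptions over libraries that fall into treatment groups. The genes most like the mean standardized profile of the 5 were Spats2l (r = 0.996), Nfkbia (0.993), Ripk2 (0.992), Fas (0.992) and Nfkb2 (0.992). The gene list depends on the measure, since by the distance of log2 fold changes 0 of these 5 genes were among the closest. For Irgm alone the closest were Apcdd1 (0.973), Klhl14 (0.971) and Irgm2 (0.965).

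Markers of other cell types were low but moved with the groups. The 10 macrophage and leukocyte markers summed to 1.24–1.83 CPM in untreated cells, 1.03–1.41 in IL-1βlow, 2.45–3.64 in CYT and 4.50–5.77 in IL-1βlow + CYT, the group in which Irgm was highest. The markers that moved most in IL-1βlow + CYT were Adgre1, at 2.25, 2.69 and 3.45 CPM, and Csf1r, at 1.46, 1.59 and 1.25 CPM. In CYT they went opposite ways. Mean Adgre1 was 0.0191 CPM in untreated cells and 1.35 in CYT, and mean Csf1r was 0.630 and 0.166. The pan-leukocyte marker Ptprc and the myeloid markers Itgam and Cd14 had 0 counts. Endothelial markers summed to 3.32–9.10 CPM, fibroblast markers to 6.18–16.4 CPM, and acinar and duct markers to at most 0.233 CPM. Hormone and factor markers of other islet cells summed to 24.2–367 CPM and were lowest in CYT. The part of these markers in the results was not tested.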

How the data were processed

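RNA-seq was made from 12 INS-1E libraries. The authors deposited raw counts per gene, obtained per the labels with FastQC, R and featureCounts on mRatBN7.2. The settings for strand and multi-mapping reads are not given in the sources used here. The 5 genes and all gene lists were chosen with earlier results of these data known, and nothing here is independent support for them.

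Counts of 34034 genes were filtered (CPM above 1 in at least 2 libraries, 14324 genes, 99.9% of counts), scaled by TMM and fitted over all 4 groups in R 4.3.3 with edgeR 4.0.16 (glmQLFit, glmQLFTest). P-values were adjusted by Benjamini-Hochberg over all 14324 genes, and the common biological coefficient of variation was 0.123 on 8 residual degrees of freedom. Calls needed an adjusted p below 0.01 and a log2 fold change beyond 0.6 (IL-1βlow against untreated) or 1 in either direction. Replicates differed by more than counting noise, and p-values measure the spread between these libraries of 1 cell line. Intervals for ratios of counts are exact 95% intervals for counting error only, and a floor is 3 counts over a group. Correlations used log2 CPM with a prior count of 2. The fit was tested on simulated data.

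Alternatives were RLE scaling, DESeq2 1.42.0, exactTest, a fit of the compared groups alone, no filter or a minimum of 10 counts in each library, a block for the replicate number, and leaving out each library. Named are the 5 genes, their relatives, 10 fixed genes of the pathway, of other lists the 2 highest and 2 lowest called (in part), and the 5 genes closest in profile. Nlrp3, Parp14 and the marker genes of other cells were described with their values known. Same-numbered libraries correlated at 0.191 on average (-0.188 to 0.520), 13 of 18 pairs above 0.1, and were not treated as pairs. Promoters came from a RefSeq table of GRCr8 with 27457 genes, in which all 5 genes matched by symbol. No protein sequences were used here. One gene of the pathway is not reported here.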

Additional observations from a re-analysis of the deposited data

Results flagged for a closer look

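In 4 of 12 tested GTPase genes the effect of the mixture differed between cells with and without the low dose of IL-1β, by the interaction term of edgeR's quasi-likelihood test at an adjusted p under 0.01 with no fold minimum, a rule that 22.6% of all genes met. The interaction log2 fold change was -2.68 for Gbp2 (adjusted p = 0.0058), -3.59 for Gbp6 (adjusted p = 0.0022) and -4.06 for Mx2 (adjusted p = 0.0020), so these rose less in preconditioned cells. It was 0.63 for Irgm (adjusted p = 0.0057), which rose more.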

How the results depend on the processing

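With RLE scaling, DESeq2, exactTest and only the groups compared, the counts of the 5 genes called stayed within 1.5 times in every comparison for which the alternative was run. With at least 10 counts in every library, which only Igtp and Irgm passed, the counts called were 1 for CYT against untreated, 2 for IL-1βlow + CYT against untreated, 0 for IL-1βlow + CYT against CYT, 2 for IL-1βlow + CYT against IL-1βlow, 1 for CYT against IL-1βlow and 0 for the interaction, since fewer genes were tested. Without a filter the interaction gave 2 calls, with Gbp5 added at -1.88 (adjusted p = 0.0076). Leaving out single libraries gave 0 to 1 calls for the interaction, 3 to 4 for CYT against untreated and against IL-1βlow, and 2 to 3 for IL-1βlow + CYT against CYT. For IL-1βlow against untreated, Gbp2 ranged from -0.62 to 0.44, turning to 0.44 without untreated replicate 1 and 0.22 without IL-1βlow replicate 2, and Gbp4 from -2.39 to 0. The share of the CYT response kept on the linear scale was 13.0% for Gbp2, 5.29% for Gbp4, 16.5% for Gbp5 and 345% for Irgm (median of the genes called higher 23.1%). From IL-1βlow it was 67.1% for Gbp4 and 70.3% for Gbp5, where the value for Gbp4 rests on 0 counts in IL-1βlow and 1 in untreated cells. Leaving out single libraries gave 49.0 to 54.9% for Gbp2. The genes closest in profile shared 0 with those by distance. Over all genes, 62 were called for IL-1βlow against untreated, against 139 with DESeq2, 137 with exactTest, 229 without a filter and as few as 16 without 1 library. The cause of these shifts was not tested. Counts under 20 per library limit Gbp2, Gbp4 and Gbp5 in cells without the mixture.

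The replicate numbers were also fitted as a replicate block. It moved no count of the 5 genes called (0, 4, 4, 3, 4, 4 and 1 over the 7 comparisons) and gave an interaction of -2.62 for Gbp2 (adjusted p = 0.0021), while the count over all genes for IL-1βlow against untreated was 141 in place of 62. In 9 of 12 libraries the best correlation was with the library's own number, a hint from the data and not from the design.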
